A study of Mus musculus with 63 samples.

Results

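The nuclear genes of the mitochondrial respiratory chain were followed in mouse small intestinal epithelium after loss of the Mediator kinases CDK8 and CDK19. The members were the protein-coding genes whose symbol begins with Nduf, Uqcr, Cox4 to Cox8 or Atp5, or is Sdha, Sdhb, Sdhc or Sdhd. Of 54752 gene IDs in the count tables, 94 met this rule: 46 in complex I, 4 in complex II, 8 in complex III, 18 in complex IV and 18 in complex V. The symbols decided the complex, so Ndufa4, also known as a complex IV subunit, was counted with complex I, and the 8 Ndufaf genes, which encode assembly factors rather than subunits, were counted there too.

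The respiratory chain sits in the inner mitochondrial membrane. Complex I takes electrons from NADH and complex II from succinate, complex III passes them on through cytochrome c, and complex IV hands them to oxygen. The proton gradient built on the way drives complex V, the ATP synthase. Complex II is encoded wholly in the nucleus, whereas each other complex also holds subunits made from mitochondrial DNA. In the intestine this machinery supplies much of the ATP that absorptive enterocytes spend on nutrient transport.

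RNA sequencing counts were available for 51 organoid libraries and 6 libraries of intestinal epithelial cells (IECs), at 3 libraries per group, and groups are named as labelled. All mice were on the C57BL/6 strain, and VillinCreERT2 denotes a Cre recombinase that is driven by the villin promoter in intestinal epithelium and activated by 4-hydroxytamoxifen (4-OHT). A time course used organoid line 1002 (VillinCreERT2; Cdk8 fl/fl; Cdk19 ko/ko), given 100 nM 4-OHT or ethanol (EtOH) for 24 hours and harvested at day 3, 5, 7 or 10, so its EtOH controls are labelled as already lacking CDK19. Line 1002 was also treated in Wnt3-conditioned medium (Wnt3-CM) and harvested at day 10. Organoids labelled VillinCreERT2; Cdk8 fl/fl; Cdk19 ko/D173A, which carry a kinase-dead CDK19 allele, received EtOH or 4-OHT and were harvested at day 7. Their columns name a line but no genotype, and the assignment was made by elimination. At day 7 after 4-OHT, 5 further lines were compared: VillinCreERT2 (line 1255), C57BL/6 (line 3983), VillinCreERT2; Cdk8 fl/fl (Cdk8 KO, line 1134), Cdk8 fl/fl; Cdk19 ko/ko without Cre (Cdk19 KO, line 407) and VillinCreERT2; Cdk8 fl/fl; Cdk19 ko/ko (double knockout, DKO, line 1003). IECs came from VillinCreERT2 and DKO mice at day 14 after the last 80 mg/kg tamoxifen dose. Each organoid group was 1 line, the sources do not say that its libraries were separate cultures, and p-values then measure only the spread between these libraries.

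Total counts per library ran from 15485959 to 32909565. Whole-gene Cdk8 levels overlapped between the arms at day 10 (53.9 to 57.1 CPM, which are counts scaled to library totals, in EtOH and 53.3 to 57.5 CPM in 4-OHT) and did not at day 7 (47.7 to 50.2 against 42.8 to 47.2 CPM). Cdk19 was counted at 24.7 to 26 CPM in the Cdk19 KO line and at 28.7 to 34.5 CPM in C57BL/6, while in DKO (27.6 to 27.8 CPM) it lay within VillinCreERT2 (27.2 to 29.1 CPM). Cdk8 in the Cdk8 KO line (78 to 83.1 CPM) overlapped VillinCreERT2 (71.9 to 80.8 CPM), and DKO IECs overlapped VillinCreERT2 IECs. In line 1002 Cdk19 was counted at 35.6 to 47 CPM in EtOH, in a table scaled separately from that of the other lines, and it was higher in 4-OHT without overlap at days 3, 5 and 7 (56.9 to 60 against 44 to 47 CPM at day 3). These gene-level counts include transcript outside the deleted parts, so they do not check the deletions. No Cre-only line received both EtOH and 4-OHT in the time course, and an effect of 4-OHT itself cannot be told apart from that of Cdk8 loss. Immune markers summed to at most 1.5 CPM in organoids. In every comparison a fold change is a log2 ratio with its standard error (SE), and a gene was called higher or lower at a Benjamini-Hochberg adjusted p under 0.05 across all genes tested in edgeR's quasi-likelihood test.

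Promoter sequences are shown for 6 members that the results below turn on, chosen after their values were seen. Cox7a1 and Ndufa3 had the largest differences between the day 10 and day 3 responses, Ndufaf4 and Ndufaf5 were low at day 7, Atp5e led complex V at day 10 and Sdhd was the complex II subunit that rose most at day 10. Each runs 5′ to 3′ over 180 bases, from 150 before to 30 after the annotated start, in RefSeq sequence of build GRCm38.p6. Capitals mark a match to 1 of 5 short motifs searched on both strands: the NRF1 palindrome, which is the stretch in capitals in Ndufaf4 and Ndufaf5, a looser form of it with any base at the fifth place (every exact match is also a loose one), CCGGAAG (the ETS factor GABPA), AAGATGGC (YY1) and TCAAGGTCA (ERR).
Cox7a1 (chr7:30184021-30184200, plus strand): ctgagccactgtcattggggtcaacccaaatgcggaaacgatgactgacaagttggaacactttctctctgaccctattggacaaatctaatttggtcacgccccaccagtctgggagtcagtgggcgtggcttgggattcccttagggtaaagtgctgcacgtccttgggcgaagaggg
Ndufa3 (chr7:3617223-3617402, plus strand): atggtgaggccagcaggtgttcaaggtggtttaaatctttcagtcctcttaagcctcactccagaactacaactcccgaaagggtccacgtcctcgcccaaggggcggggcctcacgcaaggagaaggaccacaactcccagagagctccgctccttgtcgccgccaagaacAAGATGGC
Ndufaf4 (chr4:24897933-24898112, plus strand): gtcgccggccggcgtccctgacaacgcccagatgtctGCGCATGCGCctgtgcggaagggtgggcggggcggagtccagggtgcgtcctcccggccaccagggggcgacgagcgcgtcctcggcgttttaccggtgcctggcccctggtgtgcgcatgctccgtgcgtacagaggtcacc
Ndufaf5 (chr2:140170496-140170675, plus strand): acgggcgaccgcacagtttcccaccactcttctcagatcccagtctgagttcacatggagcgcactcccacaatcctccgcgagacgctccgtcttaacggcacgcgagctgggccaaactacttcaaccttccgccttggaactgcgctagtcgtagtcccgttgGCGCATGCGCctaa
Atp5e (chr2:174464072-174464251, minus strand): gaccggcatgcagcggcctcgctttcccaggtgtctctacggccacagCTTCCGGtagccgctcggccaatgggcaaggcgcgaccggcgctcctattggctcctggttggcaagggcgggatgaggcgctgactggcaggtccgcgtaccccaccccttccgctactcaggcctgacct
Sdhd (chr9:50603820-50603999, minus strand): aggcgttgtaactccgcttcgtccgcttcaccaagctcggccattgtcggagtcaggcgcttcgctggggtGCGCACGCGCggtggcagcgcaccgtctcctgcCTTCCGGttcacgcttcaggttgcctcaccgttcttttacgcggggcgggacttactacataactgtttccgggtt

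Ndufaf4 and Ndufaf5 each hold the exact NRF1 letters, Ndufa3 holds the YY1 letters just after its start, Atp5e holds the GABPA letters on the opposite strand, and Sdhd holds both the GABPA letters and the looser NRF1 form. Cox7a1 holds none of the 5, which says only that these letters are not in this window. RefSeq promoters of 300 bases were found for 74 of the 93 member symbols. In these, the exact NRF1 letters stood in 7 (9.46%, against 0.977% of 27025 promoters of all genes), the looser form in 18 (24.3% against 4.78%), GABPA in 17 (23% against 9.12%), YY1 in 9 (12.2% against 2.88%) and ERR in 2 (2.7% against 0.407%). At least 1 of the 5 stood in 38 member promoters (51.4%, against 15.6%). A match is a description of the letters and not of binding. Members without a matched promoter included Atp5a1, Atp5f1, Atp5mpl, Atp5s, Cox4i1, Cox4i2, Cox6a2, Cox6c, Cox8c, Ndufa2, Ndufa4l2, Ndufaf6, Ndufb9, Ndufs1, Sdhc, Uqcrb, Uqcrc2 and Uqcrq.

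The members differed widely in level. Per kilobase of exon, among the 82 tested members with a length (Cox8a had none), the highest mean level in EtOH organoids at day 3 belonged to Cox6a1, the ubiquitous isoform of a complex IV subunit (567 CPM per kb), followed by Atp5a1 and Atp5d (400 and 382 CPM per kb) and Atp5b, the catalytic subunit of ATP synthase (364 CPM per kb). Cox4i1 in complex IV stood at 176, Uqcrc2 in complex III at 80.4, Sdhb in complex II at 62.9 and Ndufs1 in complex I at 9.02 CPM per kb. The 8 assembly factors ran from 2.57 (Ndufaf2) to 25 CPM per kb (Ndufaf8). Tissue-restricted isoforms were almost silent: Cox7b2, Cox8b and Cox8c, known from testis or muscle, never exceeded 1 count in any of 57 libraries, and Cox4i2 reached at most 6. Of the 8 tissue or stress isoforms listed, Cox7a1, the muscle form of a complex IV subunit, was the 1 that passed the low-count filter in the time course, at 73.8 CPM per kb beside 82.7 for Cox7a2, its ubiquitous partner. The 8 members not tested there were the other 7 (Ndufa4l2, Cox4i2, Cox6a2, Cox6b2, Cox7b2, Cox8b and Cox8c) and a second Atp5o ID that was at 0 in every library. Some ordinary subunits had few counts, among them Ndufb4 (3.68 CPM per kb) and Atp5l (0.923 CPM per kb). The tables also count processed pseudogenes such as Atp5c1-ps and Ndufab1-ps (up to 433 and 240 counts), and members with near-identical copies are uncertain where reads could be shared.

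In the time course the summed level of the members in 4-OHT organoids lay below EtOH at days 3 and 5 and above it at day 10. Summed over all members, EtOH libraries held 12090 to 12820 CPM at day 3 and 4-OHT libraries 10410 to 10620. At day 5 the EtOH libraries held 14290 to 14490 CPM against 12220 to 12450, whereas at day 7 they held 12730 to 13990 against 13220 to 13970. At day 10 the order had turned, with 15610 to 16560 CPM in EtOH and 19420 to 21360 in 4-OHT. The groups did not overlap at days 3, 5 and 10, and they overlapped at day 7. Column names follow a different style at days 3 and 5, at day 7 and at day 10, and the tables do not say what the styles stand for. A change between days of different styles cannot be told apart from what the style marks, whereas each comparison within a day shares its style.

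**Figure D1:**
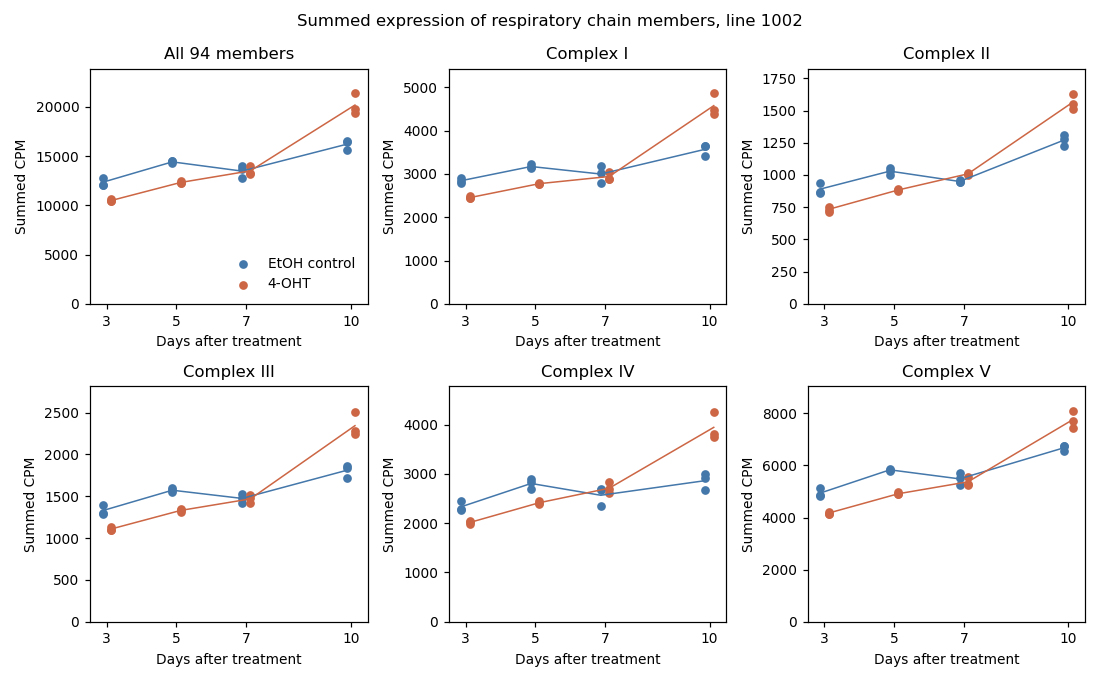
Summed CPM (vertical axis) of all 94 members and of each complex against days after treatment (horizontal axis, to scale) in line 1002; each point is 1 library, slightly offset by arm, and lines join the means of 3 libraries. In all 5 complexes the 4-OHT points lie below EtOH at day 3 and above EtOH at day 10.

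At day 3, 51 of 86 members tested were lower in 4-OHT and 0 were higher, against 18.8% lower and 15.5% higher among all 15447 genes tested. The median log2 fold change of the members was -0.23, against -0.0215 over all genes. All 4 complex II subunits fell, as did 25 of 45 in complex I, 5 of 8 in complex III, 7 of 12 in complex IV and 10 of 17 in complex V. At an unadjusted p under 0.05, 54 members were lower and 0 higher, and DESeq2 and limma-voom called 50 and 48 lower and 0 higher. Scaling by total counts alone moved the median of all genes to 0.0934, left 25 members lower and put the member median at -0.114.

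Named members at day 3 came from every complex. Ndufb10, an accessory subunit of complex I, read 80, 82.9 and 75.5 CPM in EtOH and 55.3, 52.5 and 52.9 CPM in 4-OHT, a log2 fold change of -0.57 (SE 0.0584, adjusted p 6.57e-09, edgeR). Sdhb, the iron-sulfur subunit of complex II, read 152, 134 and 136 CPM against 112, 114 and 116 CPM (-0.31, SE 0.0609, adjusted p 2e-04). The groups did not overlap for either gene. Uqcrc2, a core subunit of complex III, fell by 0.37, Cox4i1 of complex IV by 0.36 and Atp5b of complex V by 0.21 on the log2 scale. Ndufa5 (-0.51) and Ndufb2 (-0.50) fell as well, and Ndufb4 (-0.48, adjusted p 0.0358, edgeR) lost its call in several alternatives. Ndufa4 read -0.19 and was not called (adjusted p 0.0563, edgeR).

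Enterocyte markers moved in the same samples. At day 3, 9 of 10 were lower (median log2 fold change -1.23), and their summed level was 10100 to 11400 CPM in EtOH and 3720 to 4220 CPM in 4-OHT, while 4 of 7 proliferation markers were higher. In bulk RNA, fewer cells of a type and less RNA per cell cannot be told apart. The part of this shift in the members' values was not tested. At day 5, when 50 members were lower, 4 enterocyte markers were lower and 2 higher (sums 13400 to 21300 against 12300 to 12800 CPM). All 7 proliferation markers (sums 854 to 1020 against 511 to 652 CPM), all 7 Paneth markers (4910 to 6070 against 2550 to 2900 CPM) and all 7 stem markers (1740 to 2400 against 1110 to 1260 CPM) were lower too, whereas at day 3 the Paneth markers were 1 higher and 0 lower and the stem markers 4 higher and 1 lower. Of 4 tuft markers tested, 2 were lower at day 3 and 3 at day 5, and of 7 goblet markers 1 and 5.

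At day 5, 50 members were lower and 1 was higher, against 19.9% lower and 18.4% higher among all genes. The member median was -0.21 and that of all genes 0.00124. Sdhb read 166, 180 and 170 CPM in EtOH and 135, 136 and 136 CPM in 4-OHT (log2 fold change -0.34, SE 0.0605, adjusted p 5.46e-05, edgeR), with no overlap. Ndufaf6, a complex I assembly factor, fell most among members with enough counts (-0.56), followed by Ndufa5 (-0.43), Ndufaf7 (-0.40) and Ndufc2 (-0.39). The member that rose was Atp5l, subunit g of ATP synthase, at 3.52, 3.04 and 2.7 CPM against 6.57, 6.36 and 6.92 CPM (1.10). Its low level and the named pseudogenes Atp5l-ps1 and Atp5l-ps2 make this value uncertain. Subunits encoded by mitochondrial DNA went the other way, with 12 of 13 higher (median 1.06). At the other days they were 1 higher and 1 lower (day 3) and 0 higher and 1 lower (day 7). On day 10, 4 were higher and 0 lower (median 0.33). The largest day 5 fold was at a low level, for mt-Nd4l (3.05, mean 0.411 CPM in EtOH). Mean mt-Co2 was 27.6 CPM in EtOH and 29.5 CPM in 4-OHT at day 3. It was 4.96 and 27.2 CPM at day 5, and 4.6 and 5.33 CPM at day 7. Its 4-OHT level at day 5 was near day 3, and its EtOH level near day 7. This form was not shared by mt-Nd1 (6791 and 10340 CPM at day 5, 9298 and 7768 CPM at day 7). What sets the day 5 arms apart was not tested.

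At day 7 the members split. Of 86 tested, 8 were higher and 13 lower, both under the background of 22.7% higher and 22.5% lower, and the member median was -0.0143. The count of lower members was 5 without EtOH replicate 3 and 8 without 4-OHT replicate 2, 6 when only the groups compared were fitted, 20 with a minimum of 10 counts in every library and 23 when libraries were scaled by total counts alone. Of the 13 lower calls 11 were in complex I, which holds 45 of the 86 members tested, and no test set it against the other complexes. The 11 included 6 of the 8 assembly factors measured. At this day all 7 Paneth markers (sums 4890 to 5950 CPM in EtOH and 1830 to 2050 CPM in 4-OHT), all 7 stem markers (2070 to 2470 against 757 to 1140 CPM), all 7 proliferation markers (898 to 1060 against 446 to 668 CPM), all 4 tuft markers tested and 4 of 7 goblet markers were lower, and 3 of 10 enterocyte markers were higher. Their part in the members' values was not tested.

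The complex I assembly factors had a median of -0.45 at day 7, against -0.17 at day 3 and -0.27 at day 5. Ndufaf4 read 32.9, 30.3 and 35.1 CPM in EtOH and 17.7, 17 and 21.5 CPM in 4-OHT, which did not overlap (log2 fold change -0.81, SE 0.106, adjusted p 3.51e-07, edgeR). Ndufaf2 fell by 0.61, Ndufaf5 by 0.58, Ndufaf6 by 0.56, Ndufaf7 by 0.34 and Ndufaf1 by 0.29 on the log2 scale. Ndufaf8 rose (0.21). All 6 that fell were at or under 35.1 CPM in every day 7 library. At day 10 2 of the 8 were higher, their median was 0.04, and Ndufaf4 overlapped between arms (41.1, 40.4 and 38.7 CPM against 36.9, 42.8 and 36.4 CPM).

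Among the members that rose at day 7, Ndufa6, an accessory subunit of complex I, read 164, 147 and 156 CPM in EtOH and 212, 235 and 214 CPM in 4-OHT (log2 fold change 0.50, SE 0.0644, adjusted p 2.5e-07, edgeR). Atp5s, which is named for ATP synthase, rose by 0.45 and Ndufb3 by 0.29. Cox7a1 rose most and is described further on. Atp5b (-0.15) and Ndufs1, the largest core subunit of complex I (-0.21), fell, while Sdhb, Cox4i1, Uqcrc2 and Ndufa4 were not called.

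**Figure D2:**
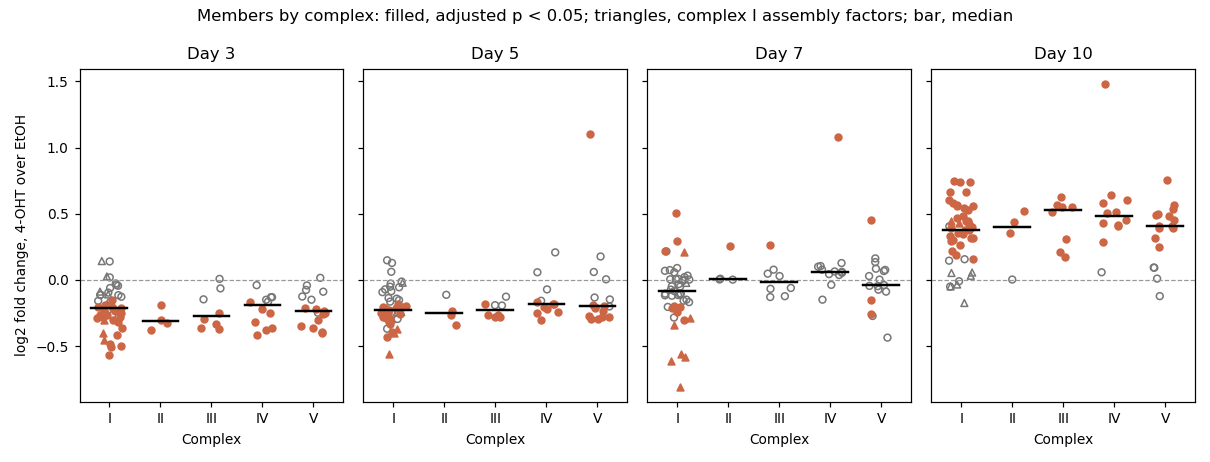
Log2 fold change of 4-OHT over EtOH (vertical axis) for each member tested, by complex (horizontal axis), at days 3, 5, 7 and 10; filled symbols passed an adjusted p of 0.05, triangles are complex I assembly factors and bars are medians. Complex I at day 7 shows filled triangles below 0, and at day 10 all 5 medians lie above 0, from 0.38 to 0.53.

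At day 10, 69 of 86 members were higher in 4-OHT and 0 were lower, against 23.1% higher and 21.2% lower among all genes. The member median was 0.41, against 0.0196 over all genes, and at an unadjusted p under 0.05, 70 members were higher and 0 lower. DESeq2 and limma-voom called 70 and 69 higher and 0 lower. The changes were modest: 11 members rose by over 1.5-fold, against 8.86% of all genes. All 8 complex III members rose, as did 11 of 12 in complex IV, 3 of 4 in complex II, 13 of 17 in complex V and 34 of 45 in complex I.

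After Cox7a1, the largest rises at day 10 were led by Atp5e, the epsilon subunit of ATP synthase. It read 71.3, 82.6 and 85.3 CPM in EtOH and 123, 151 and 129 CPM in 4-OHT (log2 fold change 0.75, SE 0.0842, adjusted p 2.23e-08, edgeR). Ndufa1 read 26.7, 29.3 and 27.9 CPM against 45.5, 52.7 and 42.3 CPM (0.74, SE 0.11, adjusted p 2.79e-06). Neither pair of groups overlapped. Ndufa11 (0.74), Ndufa4 (0.66), Ndufb9 (0.66), Cox7b (0.64), Uqcrq (0.63) and Cox7a2 (0.60) were also over 1.5-fold.

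The members fixed for every complex were set beside these. Sdhb read 193, 211 and 213 CPM in EtOH and 258, 285 and 247 CPM in 4-OHT (0.36, SE 0.0598, adjusted p 1.41e-05, edgeR), and Cox4i1 477, 470 and 501 CPM against 623, 722 and 638 CPM (0.45, SE 0.0627, adjusted p 8.06e-07). Both rose without overlap. Uqcrc2 rose by 0.17 (adjusted p 0.0103, edgeR) but lost its call in several alternatives. Atp5b read 2420, 2380 and 2380 CPM against 2570, 2620 and 2470 CPM and was not called (0.09, adjusted p 0.203, edgeR). Sdha, the flavoprotein of complex II, read 495, 470 and 475 CPM against 504, 459 and 481 CPM (0.00296, SE 0.0528), and the groups overlapped. Ndufs1, Atp5a1, Cox7a2l and Ndufa10 were not called either, nor were 6 of the 8 assembly factors. Across complex I, 26 of 30 accessory subunits (median 0.44) and 6 of 7 core subunits (median 0.30) rose, and the 2 medians were not compared by a test.

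Cox7a1 had its highest 4-OHT level at day 7. In 4-OHT it read 31.7, 40.8 and 33.2 CPM at day 3, 69.9, 79.2 and 79 CPM at day 7 and 40.9, 55.4 and 45.5 CPM at day 10. In EtOH it read 42, 39.7 and 36.8 CPM at day 3, 36, 33.4 and 38.3 CPM at day 7 and 13.9, 19.2 and 17.7 CPM at day 10. The arms overlapped at day 3, and 4-OHT lay above EtOH without overlap at days 7 and 10. The log2 fold change was 1.08 at day 7 (SE 0.103, adjusted p 2.41e-09, edgeR) and 1.48 at day 10 (SE 0.111, adjusted p 2.59e-11). At day 10 the EtOH level was itself below that of day 3 (-1.22). From day 7 to day 10 the 4-OHT level fell as well, so the larger fold at day 10 came from the lower control arm. Ndufa3, an accessory subunit of complex I, had a similar form: its EtOH libraries went from 91.6, 95.4 and 93.4 CPM at day 3 to 43.9, 51.9 and 56.1 CPM at day 10 (-0.89), while 4-OHT libraries held 87.5, 90.4 and 76.2 CPM at day 10 (0.74 over EtOH, SE 0.0965, adjusted p 4.9e-07). Cox6a2 and Cox6b2 stayed at or under 0.495 CPM in all libraries of this time course.

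**Figure D3:**
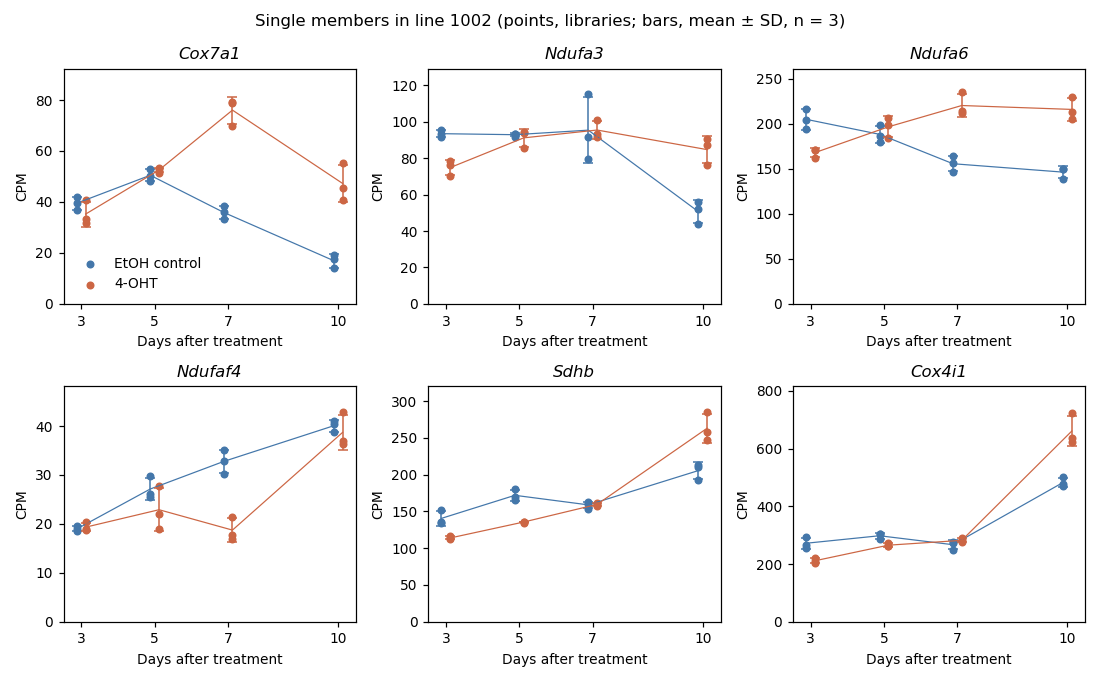
CPM (vertical axis, from 0) of Cox7a1, Ndufa3, Ndufa6, Ndufaf4, Sdhb and Cox4i1 against days after treatment in line 1002; points are libraries and bars the mean ± SD of 3 libraries. Cox7a1 reaches 69.9 to 79.2 CPM in 4-OHT at day 7, Ndufaf4 drops to 17 to 21.5 CPM there, and Sdhb and Cox4i1 pass from below EtOH at day 3 to above EtOH at day 10.

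The difference between the day 10 and day 3 responses was tested directly, as an interaction in the same fit. It was higher at day 10 for 76 of 86 members and lower for 0, against 23.7% and 21.4% of all genes, and it exceeded 1.5-fold for 48 members, against 13.9% of all genes. At an unadjusted p under 0.05, 76 members were higher and 0 lower, and both DESeq2 and limma-voom called 76 higher and 0 lower. The median difference was 0.62 (0.0311 over all genes). It was largest for Cox7a1 (1.65, SE 0.153, adjusted p 1.2e-09, edgeR), Ndufa3 (1.06), Cox7b (0.96) and Ndufb9 (0.93). Accessory subunits of complex I passed in 29 of 30 cases and assembly factors in 2 of 8, with a median of 0.25 for the latter. Ndufs1 did not pass (0.15, adjusted p 0.18, edgeR), nor did Ndufaf4 (-0.08, adjusted p 0.709, edgeR).

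The EtOH arm itself was not steady. Between EtOH at day 10 and EtOH at day 3, which are the controls of both responses just compared, 60 members were higher and 12 lower, against 33.5% and 33.7% of all genes, with a median of 0.36. Sdhd, a membrane anchor of complex II, rose from 144, 130 and 138 CPM to 297, 310 and 322 CPM (1.17, SE 0.0606, adjusted p 1.09e-15, edgeR). Uqcrfs1, the Rieske iron-sulfur protein of complex III, rose by 1.17, Ndufb6 by 1.25 and Ndufaf5 by 1.17. Cox7a1 (-1.22), Atp5g2 (-0.93), Ndufa3 (-0.89) and Atp5l (-0.65) fell. Over the same pair of days all 13 subunits encoded by mitochondrial DNA were lower (median -2.33). Of these, mt-Co2, mt-Atp8, mt-Atp6, mt-Co3 and mt-Nd4l were near the floor in EtOH at day 10, at means of 0.0169 to 0.664 CPM. Mitochondrial transcripts went from 3.92% to 5.39% of counts to 1.5% to 1.6%. These days differ in column-name style, so time and what the style marks cannot be told apart. Over the same pair of days all 7 proliferation markers were higher and all 4 tuft markers tested were lower. Enterocyte markers were 4 higher and 1 lower of 10, Paneth markers 5 higher and 1 lower of 7, goblet markers 4 higher and 1 lower of 7 and stem markers 2 higher and 3 lower of 7, and their part in the members' values was not tested.

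Other genes of the pathway, from fixed lists, were set beside the members. Of 7 other chain genes, 1 was lower and 0 higher at day 3 and at day 5, 1 higher and 1 lower at day 7, and 6 higher and 0 lower at day 10, among them Atpif1, the inhibitor of ATP synthase (0.65), Usmg5 (0.70), Cycs, which encodes cytochrome c (0.56), and Cyc1, the cytochrome c1 of complex III that the symbol rule leaves out (0.23). Of 42 assembly factors outside the rule, 17 were lower and 2 higher at day 3, 14 lower and 1 higher at day 5, 10 lower and 6 higher at day 7, and 19 higher and 1 lower at day 10. Mitochondrial ribosomal proteins were 24 lower and 0 higher of 77 at day 3, 63 lower and 1 higher at day 5, 50 lower and 2 higher at day 7 and 24 higher and 4 lower at day 10. TCA cycle enzymes were 10 lower and 1 higher of 16 at day 3, 12 lower and 0 higher at day 5, 7 lower and 4 higher at day 7 and 5 higher and 2 lower at day 10.

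Regulators of mitochondrial biogenesis did not move as 1 group. At day 10, Ppargc1a, which encodes the coactivator PGC-1α, was higher in 4-OHT (1.21, SE 0.181, adjusted p 6e-06, edgeR), at a mean of 12.2 CPM against 5.28 in EtOH. The EtOH mean was 24.9 CPM at day 3 (-2.24 from day 3 to day 10) and the 4-OHT mean 14.3. Esrra, its nuclear receptor partner, rose by 0.43. Gabpa (-0.42), Nrf1 (-0.33) and Esrrg (-1.32) fell, so 2 of 15 were higher and 6 lower. Both Ppargc1a (-0.80) and Esrra (-0.50) fell at day 3 and rose at day 7 (1.24 and 0.24). Neither was called at day 5 (0.34 with adjusted p 0.0821 and -0.04 with adjusted p 0.663, edgeR). Other day 3 calls were Tfam (-0.29), Polrmt (-0.26), Yy1 (-0.21) and Pprc1 (0.22). Day 5 calls all fell: Esrrg (-1.74), Tfb1m (-0.60), Pprc1 (-0.60), Gabpb1 (-0.40), Tfam (-0.38), Ppargc1b (-0.36), Tfb2m (-0.32), Nrf1 (-0.27) and Gabpa (-0.21). Other day 7 calls fell: Pprc1 (-0.91), Tfb2m (-0.50), Nrf1 (-0.38), Polrmt (-0.37), Gabpb2 (-0.35), Tfam (-0.20), Gabpb1 (-0.20), Gabpa (-0.17) and Yy1 (-0.16). Enterocyte markers were 6 higher and 0 lower of 10 at day 10 (median 0.45), with sums of 13600 to 17300 CPM in EtOH and 18500 to 23700 CPM in 4-OHT, and proliferation markers 5 lower and 0 higher of 7. All 7 Paneth markers (sums 8080 to 8310 against 2140 to 2540 CPM), all 7 stem markers (3190 to 3440 against 1660 to 1880 CPM) and all 4 tuft markers tested were lower, as were 5 of 7 goblet markers. Whether these shifts carry the members' values was not tested.

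Transcript length was set beside the members' changes. Of the 82 members with a length, 47 lay in the lowest quartile of all tested genes by exon length (up to 1894 bases). At day 10 the other genes of that quartile had a median log2 fold change of 0.12 and cytosolic ribosomal protein genes, which are also short and abundant, -0.09, beside 0.41 for the members. At day 3 the 3 medians were -0.0869, -0.37 and -0.23. Cytosolic ribosomal protein genes lay below the members at both days.

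**Figure D4:**
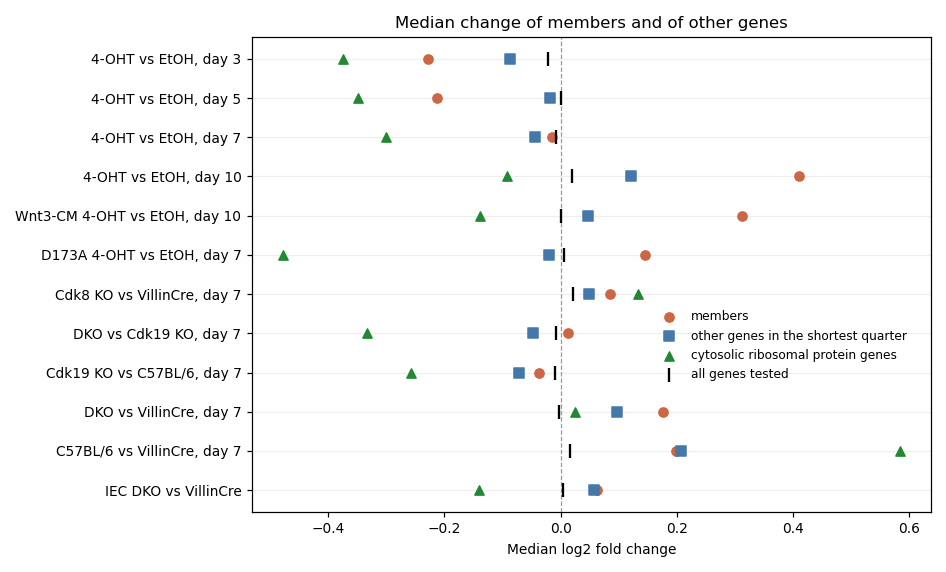
Median log2 fold change (horizontal axis) in 12 comparisons for the members, other genes of the shortest quartile, cytosolic ribosomal protein genes and all genes tested. The quartile was taken within each comparison (up to 1894 bases at day 10). The members lie at -0.23 at day 3 and at 0.41 at day 10, whereas the ribosomal protein genes lie below 0 at both.

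In Wnt3-CM, a medium that supplies the Wnt3 ligand, the members at day 10 were again mostly higher after 4-OHT. Of 87 tested, 63 were higher and 1 lower, against 24.3% and 23.9% of all genes, and the median was 0.31 against 0.000726 over all genes. Summed members read 15960 to 16730 CPM in EtOH and 18840 to 20200 CPM in 4-OHT, without overlap. The rise covered 31 of 45 in complex I, 2 of 4 in complex II, 6 of 8 in complex III, 10 of 13 in complex IV and 14 of 17 in complex V. Here 5 of 8 assembly factors were higher. Enterocyte markers were 6 higher and 2 lower of 10, all 7 Paneth markers (sums 6760 to 7480 against 1860 to 2280 CPM), all 6 tuft markers and 6 of 7 goblet markers were lower, 4 of 7 proliferation markers were higher, and stem markers were 1 higher and 3 lower of 7. Their part in the members' values was not tested.

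Cox7a1 led again, at 26.1, 27.8 and 30.8 CPM in EtOH and 65.1, 58.2 and 73 CPM in 4-OHT (log2 fold change 1.21, SE 0.0882, adjusted p 5.22e-10, edgeR). Uqcr11, a small subunit of complex III, read 65.9, 59.8 and 68.5 CPM against 124, 111 and 130 CPM (0.91, SE 0.0742, adjusted p 1.61e-09). Neither overlapped. Atp5j2, subunit f of ATP synthase, rose by 0.84 and Ndufa3 by 0.80. Atp5b read 2820, 2760 and 2860 CPM against 2920, 2790 and 2800 CPM and was not called (0.01), nor were Ndufs1 (0.10), Sdhb (0.12) and Sdha (-0.09). The single lower call was Cox6a2, the muscle isoform of Cox6a1, which read 0.789, 1.15 and 1.11 CPM in EtOH and 0.149, 0.0486 and 0.0484 CPM in 4-OHT, the latter from 1 to 3 counts. It passed the low-count filter only through EtOH, and with a minimum of 10 counts in every library 0 members were lower.

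Whether the response differed between media was tested as an interaction over both day 10 experiments, which share no libraries. Medium and count table cannot be told apart here, and the Wnt3-CM columns were assigned from their names. The response was higher in Wnt3-CM for 3 members and lower for 8 of 87, against 14.1% and 14.9% of all genes, with a median of -0.0174. When libraries were scaled by total counts alone, 9 were higher and 5 lower and the median was 0.076. The count of higher members was 5 without Wnt3-CM 4-OHT replicate 2 and 1 without standard-medium EtOH replicate 2. Ndufaf7 (0.40), Uqcr11 (0.36) and Atp5j2 (0.30) had the larger response in Wnt3-CM. Uqcrq (-0.66, SE 0.113, adjusted p 0.000172, edgeR), Ndufb9 (-0.57), Ndufa7 (-0.51) and Ndufa6 (-0.50) had the smaller. Uqcrq read 336, 344 and 371 CPM in EtOH and 360, 325 and 341 CPM in 4-OHT in Wnt3-CM, which overlapped, against 208, 249 and 249 CPM and 336, 409 and 346 CPM in standard medium, which did not. The EtOH libraries of the 2 media did not overlap for Uqcrq either, a difference that was not tested.

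With kinase-dead CDK19, 22 of 86 members were higher and 4 lower at day 7, against 14.2% and 13.7% of all genes. The median was 0.15, against 0.00532 over all genes. Summed members read 12430 to 12760 CPM in EtOH and 13420 to 15100 CPM in 4-OHT, without overlap. This count rested on single libraries: it was 44 without 4-OHT replicate 1, 13 without 4-OHT replicate 2 and 11 without EtOH replicate 2 or 3, and it was 13 when libraries were scaled by total counts alone.

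In these organoids 3 of 4 complex II subunits rose, as did 8 of 45 members in complex I, 3 of 8 in complex III, 4 of 12 in complex IV and 4 of 17 in complex V. Sdha read 486, 465 and 478 CPM in EtOH and 599, 597 and 610 CPM in 4-OHT, without overlap (log2 fold change 0.34, SE 0.0565, adjusted p 0.00162, edgeR). Sdhb also rose by 0.34 and Sdhd by 0.29. Ndufa1 read 23.4, 21 and 20 CPM against 28.2, 30.7 and 32.3 CPM (0.50, SE 0.0907, adjusted p 0.00248), and Ndufc1 (0.39), Cox6a1 (0.38) and Ndufa3 (0.38) rose too. Ndufb8 read 80.8, 84 and 86.7 CPM against 48.5, 63.1 and 69.4 CPM (-0.47, SE 0.116, adjusted p 0.0151), and Ndufs8 (-0.35), Cox8a (-0.33) and Ndufv1 (-0.21) fell. Cox7a1 read 18.8, 18.9 and 23.9 CPM against 19.7, 37.6 and 39.7 CPM, which overlapped, and was not called (0.65, SE 0.282, adjusted p 0.15). TCA cycle enzymes, to which complex II also belongs, were 10 higher and 1 lower of 16. Enterocyte markers were 5 higher and 0 lower of 10 (sums 30400 to 36600 against 42000 to 43700 CPM). Paneth markers were 1 higher and 6 lower of 7 (sums 3280 to 3530 against 1690 to 1990 CPM). All 7 stem, 6 of 7 proliferation and all 6 tuft markers were lower, while goblet markers were 2 higher and 4 lower of 7. Among enteroendocrine markers, Chgb (-1.81), Neurog3 (-1.54), Chga (-1.1) and Tac1 (-0.70) were lower, and Gip (1.61), Neurod1 (0.53) and Cck (0.48) were higher. The part of these shifts in the members' values was not tested.

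The day 7 response of kinase-dead organoids was compared with that of Cdk19-null organoids of line 1002 by an interaction. It was higher with the kinase-dead allele for 19 of 86 members and lower for 3, against 9.73% and 10.4% of all genes, with a median of 0.19. The allele, the line and the count table cannot be told apart here. The count of higher members ran from 10 to 30 over fits that each left out 1 library, the 30 being without kinase-dead 4-OHT replicate 1. It was 10 without kinase-dead EtOH replicate 3, 11 without kinase-dead EtOH replicate 2, kinase-dead 4-OHT replicate 2 or 3 or null 4-OHT replicate 2, and 12 without null EtOH replicate 1 or 3 or null 4-OHT replicate 1. Ndufaf4 differed most (0.99, SE 0.128, adjusted p 9.34e-05, edgeR): it read 36.1, 33.2 and 32.7 CPM in EtOH and 38.8, 37.5 and 39.7 CPM in 4-OHT with kinase-dead CDK19, whereas it fell in the null organoids. Ndufa1 (0.60), Atp5g1 (0.60) and Ndufc1 (0.54) also had the higher response, and Ndufb8 (-0.48), Ndufa6 (-0.45) and Cox8a (-0.43) the lower one.

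Among the 5 lines at day 7, members differed most between lines whose columns are named in different styles. VillinCreERT2 and Cdk8 KO columns share 1 style and C57BL/6, Cdk19 KO and DKO columns another, and the tables do not say what the styles stand for. Within a style, Cdk8 KO against VillinCreERT2 gave 13 of 88 members higher and 0 lower (background 15.7% and 14.6%), and DKO against Cdk19 KO gave 4 higher and 4 lower (17.5% and 17%). Cdk19 KO against C57BL/6 gave 2 higher and 4 lower (7.66% and 7.8%). Across styles, DKO against VillinCreERT2 gave 44 higher and 3 lower (25.8% and 27.1%), and C57BL/6 against VillinCreERT2, a pair without any kinase deletion, gave 48 higher and 10 lower (31.2% and 30.1%). The last 2 comparisons and that of Cdk8 KO share the VillinCreERT2 libraries. All 7 Paneth markers were lower in DKO than in VillinCreERT2 and in Cdk19 KO and higher in C57BL/6 than in VillinCreERT2. Against VillinCreERT2, C57BL/6 also had all 7 proliferation markers higher, 6 of 7 goblet markers lower and enterocyte markers 2 higher and 4 lower of 10, and DKO had all 7 goblet and all 6 tuft markers lower, 6 of 7 stem markers lower and enterocyte markers 7 higher and 2 lower. The part of these shifts in the members' values was not tested. The medians were 0.08 for Cdk8 KO, 0.01 for DKO against Cdk19 KO and -0.04 for Cdk19 KO. They were 0.18 for DKO against VillinCreERT2 and 0.20 for C57BL/6. In the C57BL/6 comparison, other genes of the shortest quartile by exon length had a median of 0.207 and cytosolic ribosomal protein genes 0.585. For DKO against VillinCreERT2 these 2 medians were 0.0972 and 0.0242.

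Cox5a, a structural subunit of complex IV, shows this split. It read 196, 210 and 205 CPM in VillinCreERT2 and 207, 195 and 187 CPM in Cdk8 KO. It read 111, 121 and 129 CPM in C57BL/6, 127, 130 and 127 CPM in Cdk19 KO and 135, 129 and 139 CPM in DKO. All 9 libraries of the second style lie below all 6 of the first. DKO fell against VillinCreERT2 (log2 fold change -0.60, SE 0.0572, adjusted p 2.56e-09, edgeR), and so did C57BL/6 (-0.76). Cox7c (0.82 and 0.90), Cox7a1 (1.03 and 1.17) and Ndufb4 (0.86 and 1.15) rose in both. Genotype and column style therefore cannot be told apart for these members.

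**Figure D5:**
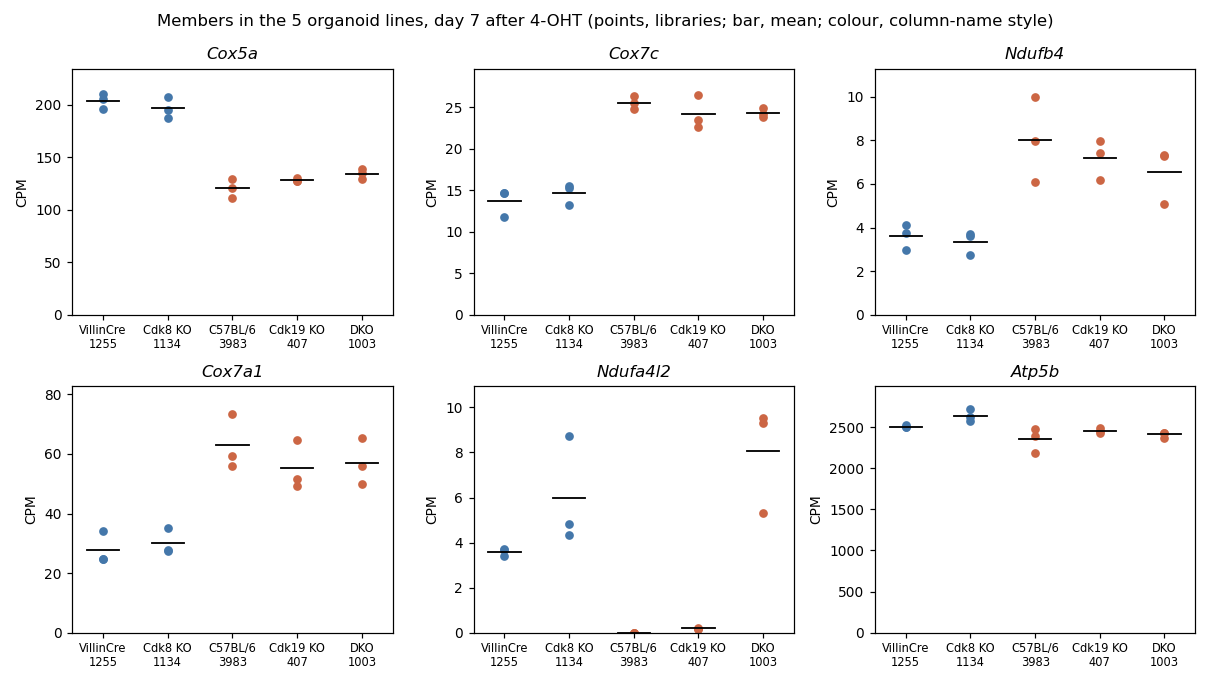
CPM (vertical axis, from 0) of Cox5a, Cox7c, Ndufb4, Cox7a1, Ndufa4l2 and Atp5b in the 5 organoid lines at day 7 after 4-OHT; points are libraries, bars are means of 3, and colours mark the column-name style. Cox5a is at 187 to 210 CPM in one style and at 111 to 139 CPM in the other, whereas Ndufa4l2 does not follow the style.

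Ndufa4l2, a hypoxia-inducible relative of Ndufa4, did not follow the column style. It was at 0 in all 3 C57BL/6 libraries and at 0.174 to 0.224 CPM in Cdk19 KO, but at 3.41 to 3.7 CPM in VillinCreERT2, 4.34 to 8.73 CPM in Cdk8 KO and 5.31 to 9.55 CPM in DKO. The 3 lines with VillinCreERT2 lay above both lines without it, and VillinCreERT2 was at least 60.4-fold higher than C57BL/6 at a floor of 3 counts over the group. It was called higher in DKO than in VillinCreERT2 (1.17, SE 0.26, adjusted p 0.00167, edgeR). In the time course and in kinase-dead organoids, which also carry VillinCreERT2, it was too low to be tested.

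Within a style, the 13 members called in Cdk8 KO were small rises, and their count was near the background given above. Of them 12 were in complex I, which holds 46 of the 88 members tested, and no test set it against the other complexes. Proliferation markers were 6 higher and 0 lower of 7, and enterocyte markers 7 lower and 0 higher of 10 (sums 27900 to 33600 CPM in VillinCreERT2 and 18700 to 20400 CPM in Cdk8 KO). All 7 goblet markers were lower. Of the enteroendocrine markers called, Gip (0.56) and Neurog3 (0.45) were higher and Cck (-0.36) was lower. The part of these shifts in the members' values was not tested. Ndufc2 read 75.1, 71.8 and 75.4 CPM in VillinCreERT2 and 88.9, 86 and 97.2 CPM in Cdk8 KO, without overlap (0.29, SE 0.066, adjusted p 0.00141, edgeR). Ndufaf6 (0.34), Atp5s (0.29) and Ndufa5 (0.26) rose as well. The count of higher members was 5 without Cdk8 KO replicate 3, 8 without VillinCreERT2 replicate 1 and 33 when libraries were scaled by total counts alone, and at an unadjusted p under 0.05, 25 were higher and 0 lower (12 and 0 by DESeq2, 14 and 0 by limma-voom). Against Cdk19 KO, DKO had a lower level of Cox7a2l, a supercomplex assembly protein, at 163, 160 and 169 CPM against 212, 229 and 213 CPM (-0.41, SE 0.0664, adjusted p 2.24e-05, edgeR). Ndufaf6 also fell (-0.53), and Ndufb7 and Ndufs7 did by less. Ndufa1 (0.24) and Sdha (0.16) were higher. The other 2 higher calls, Ndufa4l2 and Cox6b2, had at most 8 counts in any Cdk19 KO library and passed the low-count filter only through lines where they were higher, and the count was 2 with a minimum of 10 counts in every library. Both counts of 4 moved to 2 without Cdk19 KO replicate 2, and the lower count did so without Cdk19 KO replicate 3 or DKO replicate 3.

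Cdk19 KO against C57BL/6 differed in few members. Ndufs1 (0.21) and Uqcrfs1 (0.16) were higher, and Cox7a2l (-0.29), Uqcr10 (-0.24), Ndufa7 (-0.22) and Uqcrh (-0.22) were lower. Cox7a2l read 238, 262 and 302 CPM in C57BL/6 and 212, 229 and 213 CPM in Cdk19 KO. Stem markers were 5 lower and 0 higher of 7, and Paneth markers 1 higher and 2 lower of 7. Goblet markers were 1 lower of 7 and enterocyte markers 2 higher and 0 lower of 10. The enteroendocrine markers Neurog3 (-0.64), Gip (-0.58), Chgb (-0.57), Tac1 (-0.49) and Chga (-0.32) were lower, and Neurod1 and Cck were not called. The part of these shifts in the members' values was not tested. The member calls rested on single libraries. The higher count was 0 without Cdk19 KO replicate 1 and 1 without Cdk19 KO replicate 3 or C57BL/6 replicate 2, and the lower count was 18 without C57BL/6 replicate 1, 1 without C57BL/6 replicate 2 or 3 and 2 when any of the 3 Cdk19 KO libraries was left out.

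In IECs no member was called between DKO and VillinCreERT2 mice: 0 of 88 were higher and 0 lower, against 0.659% and 0.883% of all genes. At an unadjusted p under 0.05, 1 was higher and 0 lower, and DESeq2 and limma-voom also called 0 in either direction. The DKO libraries spread more widely than the controls, with summed members at 17730, 14510 and 20660 CPM against 17580 to 18510 CPM in VillinCreERT2. Cox4i1 read 576, 383 and 648 CPM in DKO and 543, 580 and 533 CPM in VillinCreERT2 (-0.04, SE 0.19). Without DKO replicate 2, 4 members were higher. The SE of Cox4i1 was 0.0627 in organoids at day 10, so a change of the organoid size could not be resolved as well here. Mitochondrial transcripts took 5.06% to 11.1% of counts in DKO and 6.86% to 7.92% in VillinCreERT2. Immune markers summed to 1770 to 2830 CPM in DKO and 1640 to 2950 CPM in VillinCreERT2. The largest of them, Cd74, had a mean of 1144 CPM in DKO and 2218 CPM in VillinCreERT2. The others all had a higher mean in DKO, among them Igkc (394.3 against 46.57 CPM), Lyz2 (385.7 against 135.4) and Jchain (118.1 against 12.1). No immune marker was called. Mesenchyme markers summed to 456 to 966 CPM in DKO and 12.8 to 883 CPM in VillinCreERT2. In DKO 3 of 7 Paneth, 3 of 7 goblet, 2 of 6 tuft and 2 of 7 stem markers were lower and none of these was higher.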

How the data were processed

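Poly-A RNA was sequenced from organoids and IECs, and the deposited values are raw read counts per gene, which the authors made with STAR 2.5.2 and featureCounts of Subread 1.6.3 against mm10, per the submitters' processing notes. Each table was tested on its own with edgeR 4.0.16 in R 4.3.3 (TMM scaling, filterByExpr with a minimum count of 10, robust quasi-likelihood F test), over 57 libraries in 16 comparisons; interactions that join tables used the shared genes. CPM values use TMM-scaled totals. The tests were run on simulated data first. Of 94 members, 86 to 88 passed the filter in each table; the others were too low. Members, gene lists and named genes were chosen with earlier results of these data known. Named genes were the 4 largest rises and falls per comparison with an adjusted p under 0.05 and a mean of at least 50 counts in the higher group, 6 fixed members, isoform pairs, assembly factors and near-silent members; other members were named after their values were seen. In 6 columns the labels gave no sample, and these were not used. Same-numbered libraries did not pair (correlations of deviations from -0.394 to 0.416). Gene lengths came from GENCODE vM21 (GRCm38) and promoters from RefSeq. Alternatives were DESeq2 1.42.0, limma-voom 3.58.1, other scalings and filters, a fit without mitochondrial genes, the replicate block, only the groups compared, and leaving out each library.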

Additional observations from a re-analysis of the deposited data

Results flagged for a closer look

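Results appear here when a test of the difference between 2 responses was passed; the tests are edgeR interactions with Benjamini-Hochberg adjusted p-values. The day 10 response exceeded the day 3 response for 76 members, with the largest differences at Cox7a1 (1.65), Ndufa3 (1.06), Cox7b (0.96) and Ndufb9 (0.93).

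The response in Wnt3-CM was higher than in standard medium for 3 members, Ndufaf7 (0.40), Uqcr11 (0.36) and Atp5j2 (0.30). It was lower for 8, among them Uqcrq (-0.66), Ndufb9 (-0.57), Ndufa7 (-0.51) and Ndufa6 (-0.50). The calls of Ndufaf7 and Atp5j2 were lost under some alternatives.

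The day 7 response with kinase-dead CDK19 was higher than in Cdk19-null organoids for 19 members, with Ndufaf4 (0.99), Ndufa1 (0.60), Atp5g1 (0.60) and Ndufc1 (0.54) at the top. It was lower for 3, Ndufb8 (-0.48), Ndufa6 (-0.45) and Cox8a (-0.43). The calls of Ndufa1, Ndufc1 and Ndufb8 were lost under some alternatives, and the line differed along with the allele.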

How the results depend on the processing

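No called result reversed under any alternative that was run, while 5 medians near 0 changed sign in some (day 7, Cdk19 KO, DKO against Cdk19 KO, IECs, and Wnt3-CM minus standard medium). Of 6377 values for named members, 243 lost their call, 80 gained one and 0 reversed. The day 10 counts (69 higher, 0 lower) stayed within 1.5 times. Scaling by total counts alone moved most values. It gave Cdk8 KO 33 higher (median 0.149). At day 3 it gave 25 lower (median -0.114), and day 5 had a median of -0.168. Day 7 had 23 lower (median -0.0745), day 10 minus day 3 a median of 0.45, Wnt3-CM minus standard medium 9 higher and 5 lower (median 0.076) and kinase-dead organoids 13 higher. Over all genes this scaling called 24.9% higher and 11.8% lower at day 3, 16.4% and 30.1% for day 10 minus day 3, 19.6% and 10.6% for Wnt3-CM minus standard medium, and 9.74% and 19% in kinase-dead organoids, and it put the median of all genes at -0.14 for day 10 minus day 3. Upper-quartile scaling gave Cdk19 KO 1 higher, DKO against VillinCreERT2 a median of 0.225, C57BL/6 against VillinCreERT2 6 lower (all genes 37.5% higher and 24.4% lower), day 3 a median of -0.192, day 5 -0.182, EtOH day 10 against day 3 0.276, Wnt3-CM minus standard medium 5 higher and kinase-dead minus null 11 higher. A minimum of 10 counts in every library gave DKO against Cdk19 KO 2 higher, day 5 a median of -0.191, day 7 20 lower, EtOH day 10 against day 3 a median of 0.274 and Wnt3-CM 0 lower. No filter gave DKO against VillinCreERT2 5 lower, DKO against Cdk19 KO 7 higher and kinase-dead minus null 12 higher and 6 lower. DESeq2 gave Cdk19 KO 2 lower. Fitting only the groups compared gave Cdk19 KO 1 higher and 1 lower, DKO against VillinCreERT2 5 lower, DKO against Cdk19 KO 9 higher and day 7 6 lower.

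Leaving out 1 library at a time gave Cdk8 KO 5 to 15 higher, Cdk19 KO 0 to 2 higher and 1 to 18 lower, DKO against Cdk19 KO 2 to 4 higher and 2 to 5 lower, and IECs 0 to 4 higher. It gave day 3 medians of -0.241 to -0.199, day 5 1 to 2 higher with medians of -0.239 to -0.21, and day 7 5 to 18 lower with medians of -0.0765 to 0.0169. Wnt3-CM had 1 to 2 lower with medians of 0.292 to 0.363, Wnt3-CM minus standard medium 1 to 5 higher, kinase-dead organoids 11 to 44 higher and kinase-dead minus null 10 to 30 higher and 2 to 5 lower. With the replicate block, day 3 had 51 lower, day 5 53 lower, day 7 13 lower and day 10 69 higher, and no count moved by over 1.5 times. The block was not fitted for Wnt3-CM and kinase-dead organoids, since the labels do not tie the numbers in their column names to samples. The kinase-dead IEC comparison was not run, since the labels do not name its columns. The causes of these shifts were not tested.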
